A study of Mus musculus with 11 samples.

Results

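The 37 genes described here are markers of microglia, the resident immune cells of the brain, and were taken as a fixed list of symbols matched to gene identifiers. They stand among 52550 genes in the count table of 11 libraries from mouse nucleus accumbens shell. All 37 passed the filter on low counts, which 15373 genes passed. For description they were divided by known role into 12 homeostatic genes, 6 complement genes, 9 phagocytic genes and 10 general myeloid genes.

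Microglia colonise the brain early in development and survive on signals through the Csf1r receptor. In undisturbed tissue they survey their surroundings with fine processes and carry receptors for nucleotides and fractalkine, such as P2ry12 and Cx3cr1. They make most of the C1q of the brain, which tags synapses and debris for removal, and they engulf such material through receptors that signal by the adaptor Tyrobp.

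Each library came from 1 labelled mouse of 8 weeks on a CBA/C57BL6J/129svEmx mixed background, and poly(A) RNA was sequenced from tissue punched out of frozen sections. The series title and design concern Rarb, a retinoic acid receptor gene, and R6/1, a mouse line that carries a mutant huntingtin fragment, and the design asks how lower Rarb signalling changes transcription beside that mutation. The design names 12 samples, of which 1 failed quality control. The labels give an animal code and no genotype, so the 11 libraries form no groups here, and values stand for libraries m44 to m115 singly or as the lowest, median and highest of the 11. The libraries held 24840981 (m61) to 48825783 (m49) counts in genes. In bulk tissue, fewer microglia and less RNA per microglial cell cannot be told apart. The labels give no batch.

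Markers of other blood and border cells were measured beside the 37. The 9 genes of border macrophages summed to 2.69 to 7.58 CPM (counts normalized to scaled library totals), with only Mrc1 and Cd163 past the filter. The 9 monocyte and neutrophil genes summed to 1.22 to 4.44 CPM, with Camp and Ngp at 0 in every library. The 9 lymphocyte genes summed to 2.27 to 29.5 CPM, with Cd3g and Nkg7 at 0 in every library, and Cd4 alone was lowest in m73 (1.70 CPM) and highest in m44 (28.8 CPM). The 5 red blood cell genes all passed the filter and summed to 21.5 CPM in m115 and 72.9 CPM in m61, with a median of 43.1 CPM, and Hbb-bs, a beta globin gene, reached 47.9 CPM. The part of these cells in the results was not tested. The 37 microglia genes summed to 680.2 CPM in m47 and 1054 CPM in m61, with a median of 836 CPM.

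The promoters of 4 genes that fell along the length measure described later are shown to let their upstream sequence be compared. Each is the 250 bases before the RefSeq start in GRCm38.p6, on the strand of the gene. Capitals mark the motif GAGGAAG, a core recognised by PU.1, the ETS factor that Spi1 encodes, here read on the other strand as CTTCCTC. C1qb lies at chr4:136886201-136886450 (minus strand), C1qc at chr4:136892915-136893164 (minus), Laptm5 at chr4:130913066-130913315 (plus) and Trem2 at chr17:48346151-48346400 (plus).

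C1qb: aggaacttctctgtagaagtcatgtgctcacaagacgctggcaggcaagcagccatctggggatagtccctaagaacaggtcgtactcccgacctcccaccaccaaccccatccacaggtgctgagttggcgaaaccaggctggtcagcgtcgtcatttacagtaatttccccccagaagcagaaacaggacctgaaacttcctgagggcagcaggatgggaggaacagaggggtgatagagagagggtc
C1qc: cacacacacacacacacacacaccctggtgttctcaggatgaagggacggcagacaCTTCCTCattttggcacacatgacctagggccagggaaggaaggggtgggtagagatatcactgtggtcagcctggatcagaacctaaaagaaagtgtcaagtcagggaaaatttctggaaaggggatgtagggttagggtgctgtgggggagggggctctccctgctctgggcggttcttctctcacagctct
Laptm5: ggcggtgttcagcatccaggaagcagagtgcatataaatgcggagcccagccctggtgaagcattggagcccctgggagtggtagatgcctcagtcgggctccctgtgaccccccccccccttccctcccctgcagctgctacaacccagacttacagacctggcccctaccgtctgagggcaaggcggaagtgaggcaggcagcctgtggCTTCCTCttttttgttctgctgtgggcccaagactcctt
Trem2: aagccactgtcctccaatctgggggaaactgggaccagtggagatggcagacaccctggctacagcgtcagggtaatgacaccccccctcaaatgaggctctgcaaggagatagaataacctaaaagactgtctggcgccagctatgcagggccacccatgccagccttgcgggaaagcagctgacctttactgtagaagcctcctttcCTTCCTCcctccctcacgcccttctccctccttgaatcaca

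The match began at position -194 from the start in C1qc, at -39 in Laptm5 and at -41 in Trem2, and C1qb held no match. RefSeq promoters were found for 29 of the 37 genes, and 10 of these 29 (34.5%) held the motif on either strand in at least 1 promoter, against 12.0% of all 27025 genes with a promoter. The 10 were P2ry13, Fcrls, C1qc, Itgam, Trem2, Fcgr3, Fcgr1, Laptm5, Csf3r and Cd33. By promoter, 11 of 35 held it for the microglia genes and 10.6% of all 32851. No other motif was searched, and a match describes letters, not a bound site.

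Levels spanned a wide range per length of transcript. On the scale of CPM per kilobase of exon, the highest medians were 43.1 for Lgmn, which encodes the lysosomal protease legumain, 42.5 for Ctss, which encodes cathepsin S, and 41.6 for C1qa. C1qb had a median of 31.5 and C1qc of 19.7. The lowest medians were 0.357 for the complement receptor gene C3ar1 and 0.0887 for Ptprc, which encodes the surface phosphatase CD45. The median of the 37 was 4.94. Of the 36 neighbour pairs in this order, 4 kept it in every library, namely C1qa above C1qb, C1qb above C1qc, Cx3cr1 above Itgb5 and C3ar1 above Ptprc. This order holds for exon length only. Per kilobase of the longest transcript the median of C1qc (31.7) lay above that of C1qb (31.5), so their order depends on the length used. The other 32 changed order in at least 1 library, so most neighbours cannot be ranked.

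**Figure D1:**
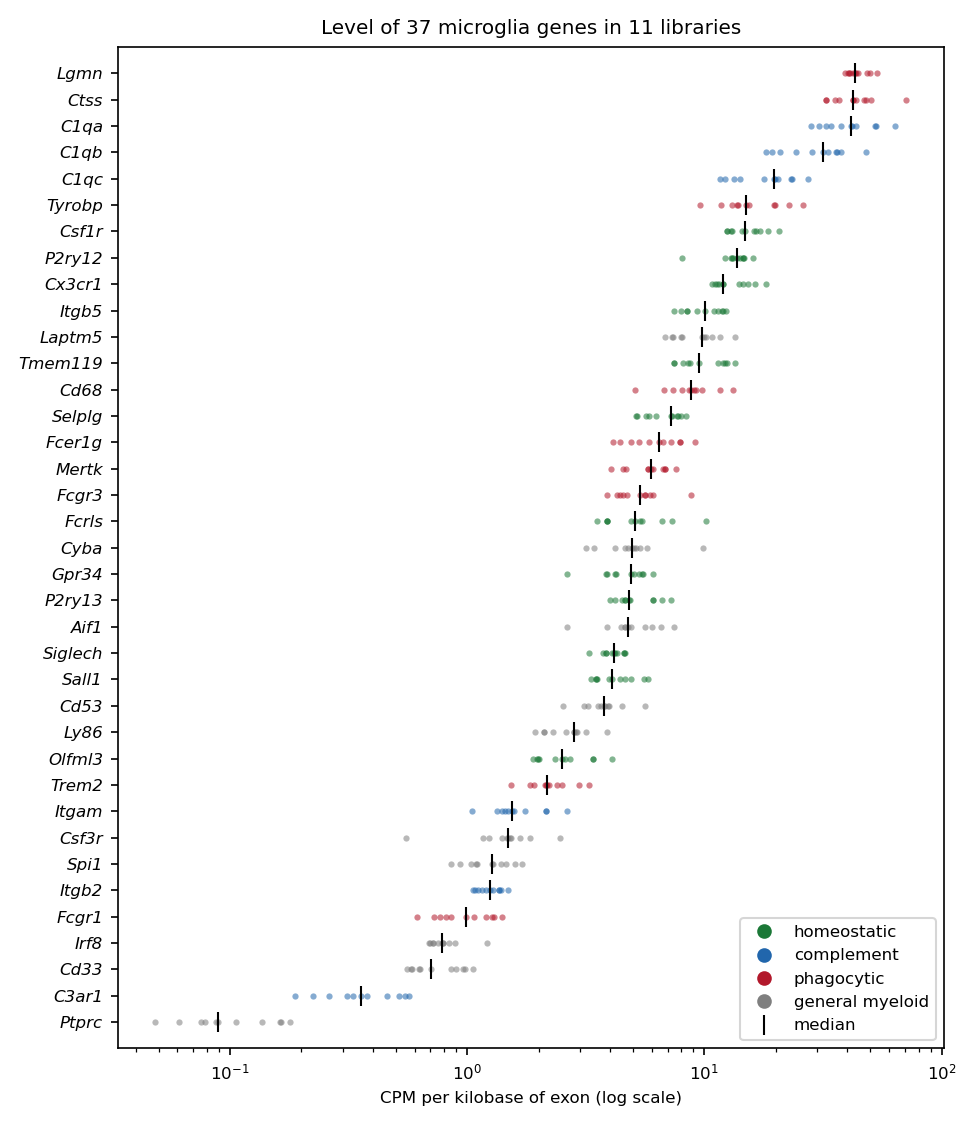
Level of each gene in CPM per kilobase of exon (log axis) in 11 libraries, coloured by role, with a black tick at the median. Lgmn, Ctss and C1qa lie at the top near 43.1 to 41.6, and Ptprc at the bottom at 0.0887.

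Among the 12 homeostatic genes, Csf1r, the receptor on which these cells depend, had the highest level in CPM, from 71.7 in m47 to 119 in m49, with a median of 85.4. Its exons overlap those of Hmgxb3 on the other strand by 873 bases, and the strand setting of the counting is not given, so its level is uncertain. Cx3cr1, the fractalkine receptor gene, ran from 48.5 CPM in m89 to 81.6 CPM in m61, with a median of 54.2. P2ry12, a nucleotide receptor gene, ran between 20.6 CPM (m74) and 40.7 CPM (m57) around a median of 35.1. Only m74 was far from the others, and without it the spread of P2ry12 (the biological coefficient of variation between libraries) was 0.0739 rather than 0.167. Gpr34, a receptor for lysophosphatidylserine, was lowest in m74 too, at 5.53 CPM against a median of 10.2 and a highest of 12.7. Tmem119, a surface marker of microglia, ran from 17.2 to 31.3 CPM and Sall1, a transcription factor gene of microglial identity, from 17.6 CPM in m61 to 30.6 CPM in m115. The 6 remaining genes were P2ry13 (10.1 to 18.3 CPM), Siglech (11.1 to 15.7), Olfml3 (11.7 to 25.2), Fcrls (8.24 to 23.8), Selplg (21.99 to 35.7) and Itgb5 (26.4 to 43.8).

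The complement group held the 3 chains of C1q, which lie side by side on chromosome 4 within 136880129 to 136898803 (mm10, minus strand). C1qb was 52.5 CPM in m61, 40.8 in m74, 39.5 in m49 and 39.2 in m83. It was 36.3 in m101, 34.3 in m44, 31.0 in m57 and 26.6 in m89. The lowest were m73 at 22.7, m115 at 21.0 and m47 at 19.8 CPM. C1qc ran from 22.6 CPM in m47 to 53.0 CPM in m61 with a median of 38.1, and C1qa between 29.3 CPM (m115) and 66.0 CPM (m61), its median being 43.3. The same library was highest for each chain. The ratio of C1qb to C1qc stayed between 0.879 and 1.03 in CPM, while that of C1qa to C1qc lay between 0.880 and 1.43. Itgam, the alpha chain gene of complement receptor CR3, was lowest in m115 (5.29 CPM) and highest in m61 (13.2 CPM). Itgam shares 3450 exonic bases with Gm49368 on the same strand, a gene with a count of 0 in every library. That 0 does not show whether reads in the shared bases were counted for Itgam, so the level of Itgam is uncertain. Itgb2, the partner of Itgam, varied little, from 3.24 to 4.54 CPM, and C3ar1 lay between 0.809 and 2.44 CPM.

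Of the phagocytic genes, Tyrobp, the signalling adaptor, was 6.38 CPM in m115, the lowest, 17.4 CPM in m61, the highest, and 10.0 CPM at the median. Trem2, a lipid-sensing receptor that signals through it, ran from 7.56 CPM in m47 to 16.2 CPM in m61 with a median of 10.7. Both were highest in m61 and next highest in m74. The lysosomal gene Cd68 ran from 6.40 to 16.6 CPM, Ctss from 44.3 to 96.5 CPM and Lgmn from 90.6 to 124 CPM. The Fc receptor genes Fcgr3 and Fcgr1 ran from 6.76 to 15.2 CPM and from 1.60 to 3.62 CPM, and their shared chain Fcer1g from 3.59 to 8.01 CPM. Fcgr3 is close in sequence to Fcgr2b, so the split of reads between them is uncertain. Mertk, a receptor for dying cells, ran the other way, with 17.6 CPM in m61, the lowest, and 32.8 CPM in m57, the highest.

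Among general myeloid genes, Laptm5, a lysosomal membrane gene, ran from 25.8 CPM in m47 to 51.2 CPM in m61. Ly86 (7.03 to 14.1 CPM), Aif1, which encodes the microglial marker Iba1 (4.03 to 11.4), Cd53 (4.43 to 9.80) and Cyba, an oxidase subunit gene (3.29 to 10.2), were also highest in m61. The transcription factor genes Spi1 and Irf8 lay between 2.31 and 4.59 CPM and between 4.85 and 8.53 CPM. Irf8 was high in m44 only, and its spread of 0.151 was 0.0394 without that library. Csf3r, Ptprc and Cd33 were lowest in m61, at 1.99, 0.887 and 4.34 CPM, against highest values of 8.93 CPM in m101, 3.28 CPM in m73 and 8.24 CPM in m89.

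Library m61 was the highest for 21 of the 37 genes and the lowest for 5, namely Sall1, Mertk, Csf3r, Ptprc and Cd33. Library m115 was the lowest for 9 genes and m47 for 7. In m61 mitochondrial transcripts also took the largest share of counts, 7.21%, against 2.90% to 5.15% in the other 10, and its count total was the lowest. The part of these differences in the levels was not tested.

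**Figure D2:**
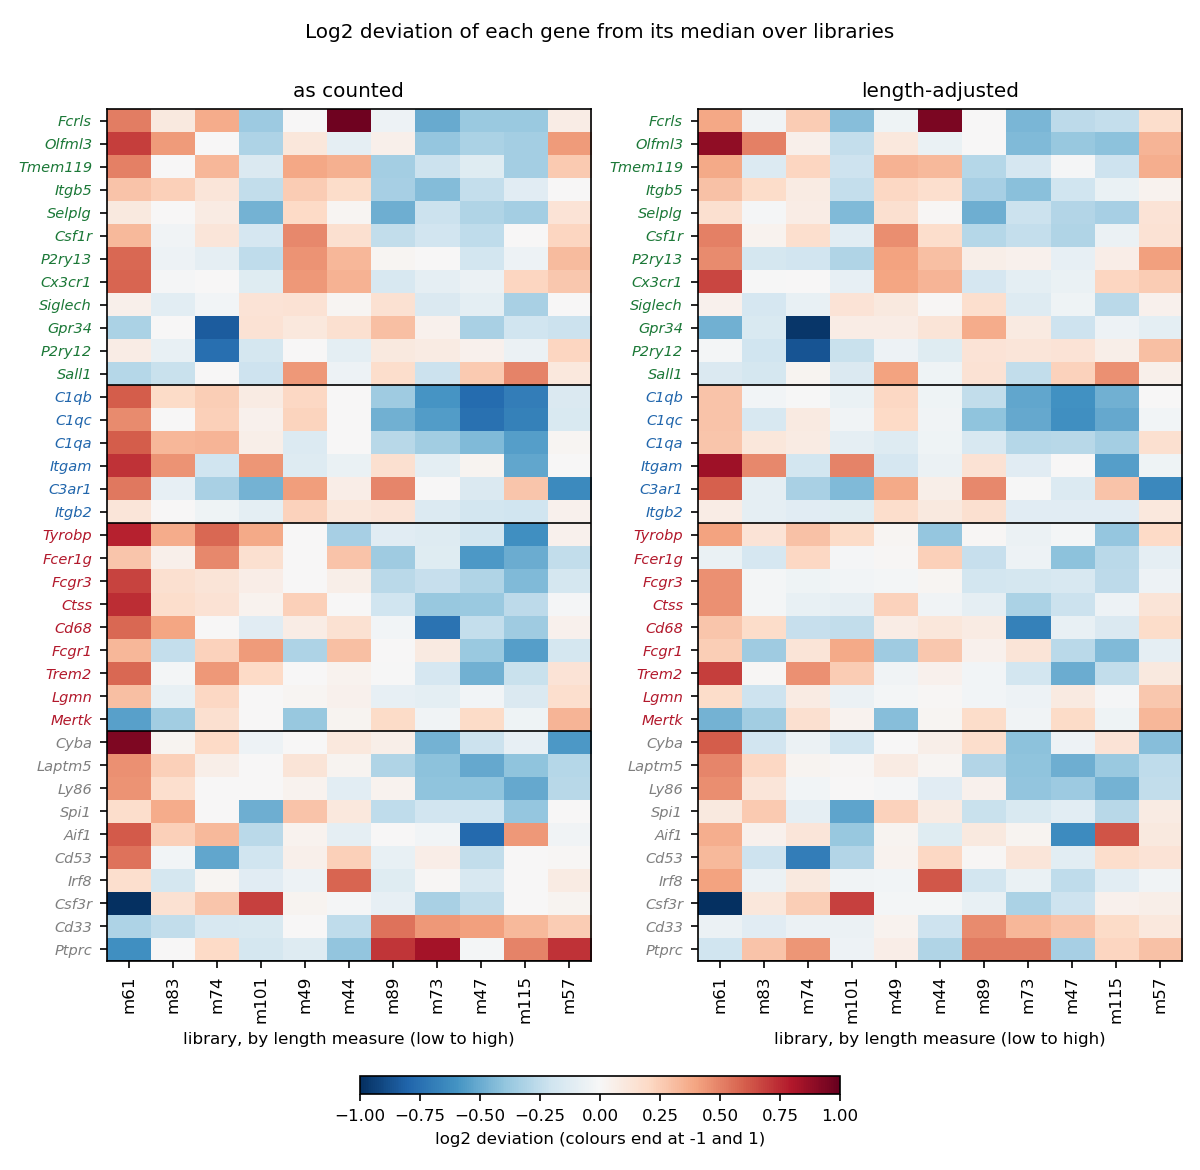
Log2 deviation of each gene from its median over 11 libraries, as counted (left) and with the trend on exon length removed (right). Genes are grouped by role and libraries run by length measure from m61 (-0.63) to m57 (0.43), and the 3 C1q genes are red in m61 and blue in m73, m47 and m115 on both sides.

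Libraries differed in long against short transcripts, which bears on these genes because their exon lengths run from 667 bases (Tyrobp) to 18313 bases (Ptprc). The length measure of a library is the median log2 deviation of its longest 10% of genes minus that of its shortest 10%, computed without the 37. It was -0.63 in m61, -0.46 in m83, -0.42 in m74, -0.23 in m101, -0.10 in m49 and -0.07 in m44. It was 0.23 in m89 and m73, 0.38 in m47 and 0.43 in m115 and m57. A second measure made likewise from GC content moved with it (r = -0.74, rho = -0.74 over the 11 libraries, as a description).

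The slope of each gene on the length measure was tested over all 15373 genes with edgeR's quasi-likelihood test, with an adjusted p of 0.05 as the threshold. A negative slope means a lower level in libraries where long transcripts are higher, in log2 units per unit of the measure. Of the 37 genes, 14 passed, against 32.9% of all genes, so the share that passed in either direction was near that of all genes. By direction, 12 were lower, against 14.8% of all genes, and 2 were higher, against 18% of all genes. The median slope of the 37 was -0.44 and that of all genes 0.03, with 31 of the 37 slopes negative. All genes here include those that define the measure, from which the 37 were left out.

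All 3 C1q genes fell along the measure. The slope was -1.02 ± 0.17 for C1qb (SE, n = 11 libraries, edgeR adjusted p = 0.000635), -0.90 ± 0.18 for C1qc (0.00164) and -0.83 ± 0.15 for C1qa (0.000877). Of the other complement genes none passed, and Itgam had a slope of -0.63 ± 0.24 (edgeR adjusted p = 0.0542), which passed without m74, with a measure from 20% ends, with the GC covariate and by DESeq2's Wald test. Of the 9 phagocytic genes 6 fell, namely Tyrobp (-0.92), Fcer1g (-0.83), Fcgr3 (-0.78), Ctss (-0.71), Cd68 (-0.65) and Trem2 (-0.58). Their edgeR adjusted p ran from 0.00203 for Fcgr3 to 0.0300 for Cd68. Trem2 did not pass without m115, m61, m47 or m74 (slopes over all libraries left out -0.73 to -0.48), nor Cd68 without m115, m61, m83 or m47 (-0.80 to -0.53). Mertk had a slope of 0.46 ± 0.18 (edgeR adjusted p = 0.0611, passing without m74), and those of Lgmn and Fcgr1 were -0.20 and -0.60, without passing.

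Of the general myeloid genes, Laptm5 (-0.77 ± 0.12, edgeR adjusted p = 0.000439), Cyba (-0.87 ± 0.25, 0.0141) and Ly86 (-0.68 ± 0.16, 0.00616) fell. Ptprc (1.12 ± 0.40, edgeR adjusted p = 0.0442) and Cd33 (0.80 ± 0.20, 0.00702), which encodes a sialic acid receptor, rose along the measure. Cyba did not pass without m61 (slope -0.53, edgeR adjusted p = 0.125), nor Ptprc without any 1 of m115, m61, m89, m73, m101 and m57 (slopes over all libraries left out 0.92 to 1.33). None of the 12 homeostatic genes passed, with slopes from -0.65 for Fcrls to 0.46 for Sall1 and the lowest edgeR adjusted p at 0.0525 for Itgb5. Some passed under other settings. Itgb5 fell with DESeq2 size factors, DESeq2's Wald test, a filter of 5 CPM, a measure from protein-coding genes, and without m49, m101 or m57. Fcrls fell without m44, Tmem119 and Olfml3 fell without m57, and Sall1 rose without m49 or m73. The median slope was -0.22 for homeostatic, -0.73 for complement, -0.65 for phagocytic and -0.31 for general myeloid genes. Whether the roles differ in slope was not tested.

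**Figure D3:**
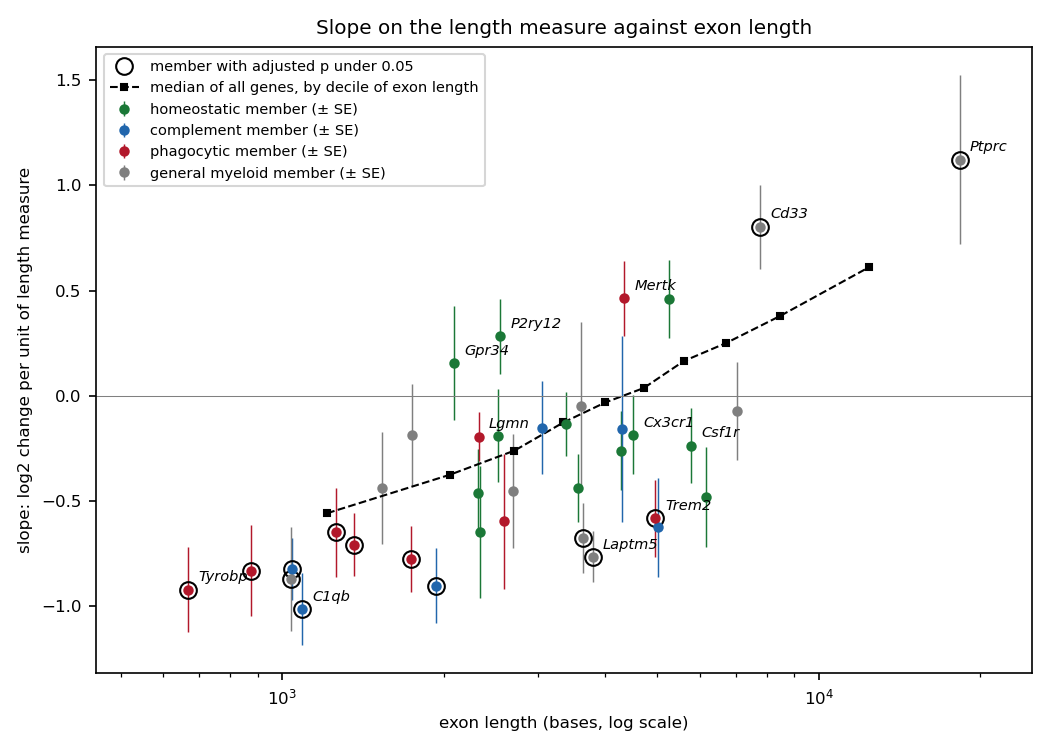
Slope on the length measure (log2 change per unit, bars are SE) against exon length in bases (log axis) for the 37 genes by role, with open rings on the 14 that passed and squares at the median slope and median length of each length decile of all genes. Short genes such as Tyrobp and C1qb lie near -0.92 and -1.02, and the longest, Ptprc, at 1.12.

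Exon length moves with these slopes in all genes, from a median slope of -0.56 in the shortest decile to 0.61 in the longest decile. The length measure was made from genes at these ends, so the opposite signs of these median slopes are built in. The shares of all genes given below include genes that define the measure, while the microglia genes were left out of it. Of the 8 microglia genes in the shortest decile 7 fell, against 43.0% of all genes there. In the shortest 20%, 9 of 15 fell, against 38.3% of 3070 genes. These 9 were all 3 C1q genes, 5 of 6 phagocytic genes and 1 of 3 general myeloid genes, while 0 of 3 homeostatic genes passed. The 3 homeostatic genes were longer (2090 bases for Gpr34 to 2334 for Fcrls) than the 9 that fell (667 for Tyrobp to 1931 for C1qc). Of the others that did not fall, Lgmn had 2323 bases, Cd53 1742 and Aif1 1532. Between 20 and 50%, 2 of 13 fell, against 17.3% of all genes of that length. In the longest 50%, Trem2 fell and Ptprc and Cd33 rose of 9 genes, against 3.97% falling and 31.2% rising among all genes there.

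Set against the median slope of genes in the same length decile, 26 of the 37 lay below it. The median difference was -0.36 for complement (6 of 6 below), -0.27 for phagocytic (7 of 9), -0.15 for homeostatic (8 of 12) and -0.06 for general myeloid genes (5 of 10). The largest differences below were those of Laptm5 and Olfml3 at -0.73, Itgam at -0.66 and Trem2 at -0.62. The largest above were P2ry12 at 0.54, Gpr34 at 0.53, Ptprc at 0.51 and Mertk at 0.50. These deciles are of exon length, which can exceed the longest transcript. The longest transcript was 2600 bases against 3788 of exon for Laptm5, and 5740 against 18313 for Ptprc. For Trem2 the lengths were close (4784 and 4946), but both are of annotated models. Counts per gene do not show which transcript was expressed, and it can be shorter than either length. The decile of a gene, and its difference, can thus depend on the length used. With the GC measure as a second covariate, the slopes of C1qc (-0.59), Fcer1g (-0.61), Cd68 (-0.48), Trem2 (-0.50), Ly86 (-0.68), Ptprc (1.40) and Cd33 (0.62) no longer passed. The slope of Ly86 was nearly the same with and without that covariate, and that of Ptprc was larger with it, so a lost call does not measure a share of GC content.

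The spread between libraries was partly taken up by the length measure. The median spread of the 37 was 0.218, or 0.163 with the measure in the fit, against 0.201 and 0.158 for all genes. It was 0.266 and 0.152 for complement, 0.229 and 0.140 for phagocytic, 0.223 and 0.177 for general myeloid and 0.185 and 0.173 for homeostatic genes. Single libraries set some values. The spread of Itgb2 was 0.0790, or 0.0455 without m49. Without m61 that of Cyba was 0.180 rather than 0.293, and that of Csf3r 0.214 rather than 0.323.

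The score of a library, the mean over the 37 genes of the log2 deviation from each gene's median, ran from -0.24 in m47 to 0.30 in m61, a range of 0.540 that was 0.359 without m61. With the trend on length removed it ran from -0.18 to 0.24 in the same libraries. Over the 11 libraries the score had r = -0.77 and rho = -0.67 with the length measure, and r = -0.81 without m61 and m57. The r with the length measure was -0.88 for complement, -0.86 for phagocytic, -0.58 for general myeloid and -0.38 for homeostatic scores. With the length trend removed these were -0.75, -0.59, -0.51 and -0.24, and -0.56 for all 37, so the adjustment removed only part of the relation. These values describe scores over the same libraries, which differ in depth and base composition. The phagocytic score was 0.41 in m61, -0.04 in m49 and 0.06 in m44, and the homeostatic score was 0.26, 0.25 and 0.19 in the same libraries. General myeloid minus homeostatic scores were negative in m44, m47, m49, m57 and m61 and positive in the other 6.

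**Figure D4:**
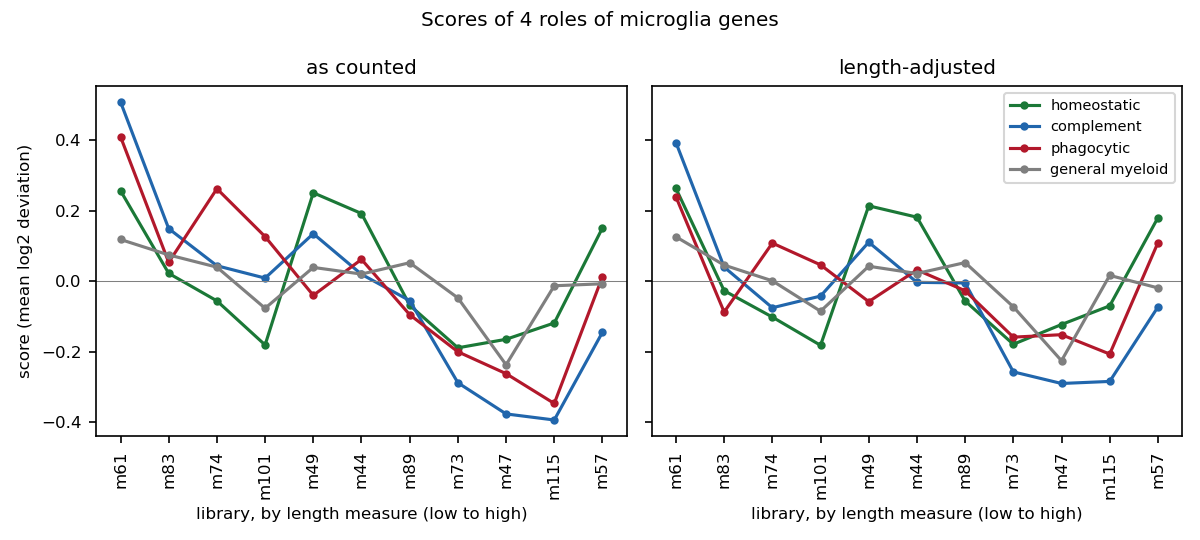
Score of each role (mean log2 deviation) in 11 libraries ordered by length measure, as counted (left) and with the length trend removed (right). The complement score is 0.51 in m61 and -0.39 in m115 as counted, and 0.39 and -0.28 once adjusted.

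Over the 11 libraries 16 pairs were compared, some of subunits or of a receptor and its adaptor and others of genes from the same role or from different roles, with permutation p adjusted over the 16. By r 7 pairs passed, and the same 7 passed by rho. C1qb and C1qc had r = 0.99 and rho = 0.99 (permutation adjusted p = 0.00016 for both, and the raw 1e-05 is the smallest that 100000 permutations can give), with r = 0.98 without m47 and m115. C1qa had r = 0.93 with C1qb (rho = 0.89, permutation adjusted p = 0.0004 and 0.00368) and 0.89 with C1qc (rho = 0.88, permutation adjusted p = 0.00156 and 0.00368). C1qb with Trem2, a pair from different roles, had r = 0.87 and rho = 0.82 (permutation adjusted p = 0.00156 and 0.0118). The chains of C1q thus rose and fell together in these libraries.

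Receptors and their adaptors also passed. Trem2 and Tyrobp had r = 0.80 and rho = 0.78 (permutation adjusted p = 0.00827 and 0.0179), and r = 0.78 without m61 and m47. Fcgr3 and Fcer1g had r = 0.79 and rho = 0.86 (permutation adjusted p = 0.00781 and 0.0044), and Fcgr1 and Fcer1g r = 0.76 and rho = 0.75 (permutation adjusted p = 0.0184 and 0.0229). Without m115 the r of Fcgr1 and Fcer1g was 0.70 and did not pass (permutation adjusted p = 0.0538). On values with the length trend removed the 3 C1q pairs and C1qb with Trem2 still passed by r, at 0.97, 0.81, 0.79 and 0.80, and the other 3 did not, with r of 0.68, 0.35 and 0.59. By rho 6 pairs passed on these values, the same 4 with Trem2 and Tyrobp (rho = 0.81, permutation adjusted p = 0.0211) and Cx3cr1 and C1qb (0.75, 0.0365). The length trend was only partly removed, as the adjusted complement score still had r = -0.75 with the length measure. The remaining 9 pairs did not pass by r, among them Csf1r and Spi1 (r = 0.67, permutation adjusted p = 0.0511), Itgam and Itgb2 (0.30, 0.454) and Cx3cr1 and P2ry12 (0.22, 0.625). Without m83 the r of Csf1r and Spi1 was 0.84 and passed (permutation adjusted p = 0.00741). P2ry12 and Trem2 had r = -0.38 (permutation adjusted p = 0.371).

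**Figure D5:**
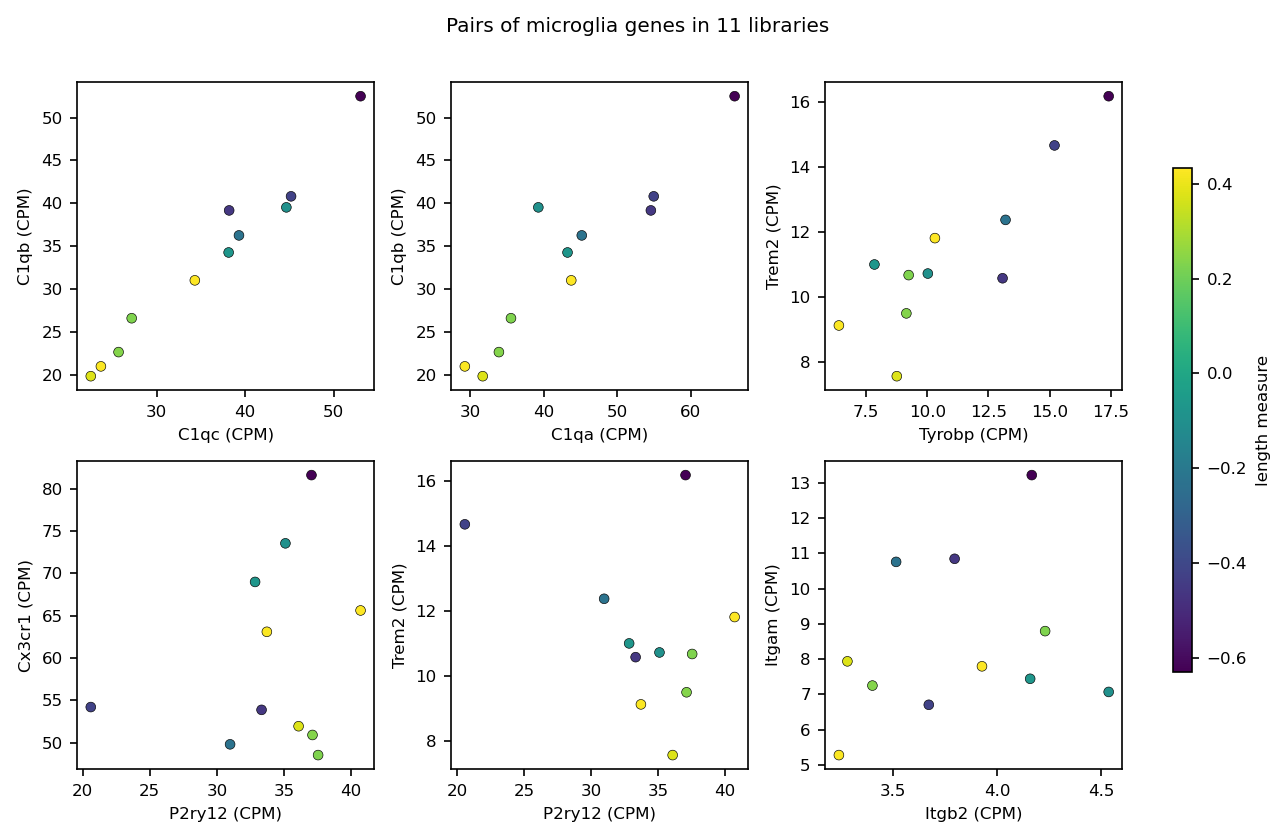
CPM of 6 gene pairs in 11 libraries, coloured by length measure. C1qb follows C1qc closely, from 19.8 and 22.6 CPM in m47 to 52.5 and 53.0 CPM in m61, while P2ry12 against Cx3cr1 or Trem2 shows m74 alone at 20.6 CPM.

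Against the mean of the other 36 genes, 18 of the 37 had r of at least 0.7 over the 11 libraries as counted, and 13 once the length trend was removed. The highest were Ctss at 0.94 and C1qb at 0.94 as counted. A negative r was found for P2ry12, Gpr34, Sall1, Mertk, Csf3r, Ptprc and Cd33. Whether cells other than microglia add to the levels of these genes was not tested.

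Genes of related lists were tested in the same fit. Of 38 further microglia genes, 3 fell along the length measure, namely Ctsz (-0.74, edgeR adjusted p = 0.000269), which encodes a lysosomal protease, Crybb1 (-1.08, 0.0160) and Rgs10 (-0.84, 0.0102), and Plek (0.60) and Hpgds (0.71) rose, against 14.8% of all genes falling and 18% rising. Of 22 genes linked to activated microglia 16 passed the filter and 6 fell, namely Apoe (-0.83), Cd63 (-0.85), Cd9 (-0.64), Ctsd (-0.60), B2m (-0.58) and Ctsb (-0.41), and none rose. Cst7, Itgax, Clec7a, Ccl3, Ccl4 and Ch25h did not pass the filter. Other cells of the brain express Apoe and the cathepsins as well.

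Of 13 other complement genes 6 passed the filter. Only Cr1l, a regulator, rose (0.44, edgeR adjusted p = 0.0452), against 18% of all genes rising. Of 14 genes for signals to microglia 13 passed the filter. The TGF-beta receptor genes Tgfbr1 (0.71) and Tgfbr2 (0.44) rose and none fell, against 18% of all genes rising and 14.8% falling. For both lists the share that rose was near that of all genes. The Csf1r ligand gene Il34 had a slope of -0.42 (edgeR adjusted p = 0.0574), and Cx3cl1, which encodes fractalkine, ran from 574 CPM in m47 to 1098 CPM in m61.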

How the data were processed

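Poly(A) RNA of 11 libraries was sequenced. The authors deposited unnormalized whole counts per gene. The submitters' processing notes name HTSeq 0.6.1, Bowtie2 2.1.0, TopHat2 2.0.14, bcl2fastq 2.17.1.14 and the mm10 genome. Strand setting and annotation release: not given in the sources used here. Of 52550 identifiers 52403 matched GENCODE M21, which gave symbols, coordinates and exon lengths. Promoter sequences are from RefSeq (GRCm38.p6).

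CPM were computed on totals scaled with TMM factors (edgeR 4.0.16 in R 4.3.3), whose factors lay between 0.908 and 1.06. The filter kept genes that reached 1 CPM in at least 3 libraries and had a median count of 10 or more. A count of 3, used as the floor for counting error, was 0.0619 to 0.133 CPM. Log2 values used a pseudocount of 0.5 CPM. The slope on the length measure was fitted over all kept genes by the quasi-likelihood test with Benjamini-Hochberg adjustment, and its SE is the slope over the root of the F statistic. Spread is the biological coefficient of variation of each gene without sharing between genes. The length trend was removed with a lowess of span 0.3 on log2 exon length over other genes. Pairs were tested two-sided with 100000 permutations. P-values measure the spread between these libraries. DESeq2 1.42.0, Python 3.11.15, numpy 2.4.6, pandas 2.3.3, scipy 1.17.1, statsmodels 0.14.6 and matplotlib 3.10.9 were also used.

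Data were simulated for the slope test with 15373 genes and the same spread of 0.15 for every gene. Slopes of 1 and of 0.5 were given to 100 genes each, and 15173 genes had none. Of slopes of 1, 87% were called, of slopes of 0.5, 25%, and of genes without one, 0.0461%. In the data 32.9% of all genes passed and spread differed between genes, so these shares need not hold there. The 37 genes and all lists were chosen with earlier results of these data known. Named genes are the 37, the 15 most like their length-adjusted score, the most abundant of each list and the called genes of 4 related lists. Alternatives were other scalings, filters, pseudocounts, length measures, a GC covariate, DESeq2's Wald test and each library left out.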

Additional observations from a re-analysis of the deposited data

How the results depend on the processing

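No paired analysis was possible because the labels give no groups. C1qa, C1qb, Tyrobp, Ctss, Fcgr3 and Laptm5 passed under all 20 alternatives to the slope test, Trem2 and Cd68 under 15 each and Ptprc under 9 of 19. The 12 genes that fell were 8 to 14 under the settings, with 8 where the GC measure was a second covariate, which lost C1qc, Cd68, Fcer1g, Ly86 and Trem2 and gained Itgam. Over all genes 2604 passed with that covariate, 8.05% in the falling direction, and 5053 without it. The 2 genes that rose were 1 with no filter, with a filter of 5 CPM, with a measure from 20% ends and with the longest transcript as length, and 0 with the GC covariate, which lost Cd33 and Ptprc. Leaving out 1 library gave 9 (without m61) to 15 (without m57) falling and 1 to 3 rising genes.

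With GC the slope turned to 0.092 for Selplg, 0.080 for Csf1r, 0.050 for Itgb2, 0.020 for Irf8 and 0.66 for Csf3r, none called. The cause was not tested. With 1 library left out slopes ran from -0.28 to 0.017 for Cx3cr1, -0.33 to 0.037 for P2ry13, -0.062 to 0.24 for Gpr34, -0.33 to 0.24 for C3ar1 (0.091 without m57), -0.34 to 0.14 for Cd53 and -0.61 to 0.13 for Csf3r. The pair Tmem119 and P2ry12 ran from r = -0.37 to 0.15, and P2ry12 and Trem2 from -0.63 to 0.051, both turning without m74.

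Pairs that passed by r were 4 rather than 7 on length-adjusted values (6 by rho) and 6 to 8 with 1 library left out. The range of the score, 0.540, was 0.369 on unscaled totals, and 0.359 (without m61) to 0.567 with 1 left out. The median level of 4.94 CPM per kilobase was 6.09 by longest transcript.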

Other observations

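Outside the 37 genes, the 15 genes whose levels were most like the length-adjusted score of the 37 over the 11 libraries were Agpat3, Mkrn1, Wscd2, Lzts1, D430041D05Rik, Nr2f6, Dock3, Fam131b, Nat8l, Rnft2, Lingo1, Syt5, Kcnma1, Chrm1 and Dusp8, with Pearson r from 0.96 for Agpat3 to 0.91 for Dusp8 among 15316 genes. None of the 15 is in the lists of other or activated microglia genes. The median r to that score was 0.36 for 38 other microglia genes, 0.50 for 16 activated microglia genes, 0.79 for the 2 border macrophage genes past the filter, 0.69 for 10 astrocyte genes, 0.63 for 11 striatal neuron genes and 0.03 for the other genes. It was also above 0.36 for ribosomal protein (0.57), red blood cell (0.52), oxidative phosphorylation (0.52), signals to microglia (0.50), oligodendrocyte (0.48) and oligodendrocyte precursor genes (0.41). It was lower for endothelial and pericyte (0.34), lymphocyte (0.18), other complement (-0.15) and interferon genes (-0.47), among others. By this median over single genes, most of these lists had a higher r than the other microglia genes. The length-adjusted mean score of the other microglia genes, however, had r = 0.87 and rho = 0.91 with that of the 37. Only the score of the border macrophage genes had a higher r (0.88). These are descriptions over libraries that differ in depth and base composition, with no test.

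As counted, the score of the 37 had r = 0.85 with that of activated microglia genes, 0.79 with other microglia genes, 0.80 with red blood cell genes, 0.79 with ribosomal protein genes and 0.77 with oxidative phosphorylation genes over the 11 libraries. With border macrophage genes (2 past the filter) it was 0.76 as counted, and 0.88 with the length trend removed. Without m47 and m61 these were 0.36 and 0.66. Other lists also had a high r with the length trend removed. It was 0.87 for other microglia genes, 0.84 for signals to microglia, 0.79 for endothelial and pericyte genes, 0.78 for activated microglia genes and 0.76 for astrocyte genes. The remaining lists had lower values. Without m115 and m47 the length-adjusted r for other microglia genes was 0.81. It was 0.64 for signals to microglia without m61 and m57, and 0.51 for endothelial and pericyte genes without m61 and m44. For activated microglia genes it was 0.38 without m61 and m73, and for astrocyte genes 0.59 without m61 and m101. The libraries left out differed between lists, so these values cannot be ranked against each other. The r with interferon genes over the 11 libraries was -0.41 as counted and -0.59 with the length trend removed.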
